A study of Homo sapiens with 24 samples.

Results

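The 48 genes described here act in homologous recombination, the repair of a broken chromosome from its sister copy, and in the Fanconi anaemia pathway, which unhooks crosslinked DNA strands. They were taken by symbol from a list drawn up with earlier results of these data known. All 48 were found among the 60366 entries of the count table, and all 48 had enough reads to be tested in each of the 3 lines. The lines, BXPC3, MIAPACA2 and PSN1, are pancreatic adenocarcinoma lines described as MTAP-deleted, with the genotype given as WT and no engineered allele. Each line had 4 libraries after 6 days of AM-9747, a tool compound of the MTA-cooperative class of PRMT5 inhibitors, at 100 nM in BXPC3, 150 nM in MIAPACA2 and 100 nM in PSN1, and 4 libraries after 6 days of DMSO vehicle. Since the dose differed in MIAPACA2, a difference between that line and the others cannot be told apart from a difference in dose. Nothing in the labels says that the 4 libraries of a group came from separate cultures, and the p-values then reflect only how these libraries scatter, which may be technical.

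PRMT5 places symmetric methyl marks on arginines of histones and of proteins that build the splicing machinery. Cells without MTAP accumulate its substrate MTA, which binds PRMT5, and inhibitors of this class bind the enzyme together with MTA. In homologous recombination, MRE11, RAD50, NBN, RBBP8, EXO1 and DNA2 trim the broken ends, BRCA1, BARD1, PALB2 and BRCA2 prepare the bared strand for pairing, and RAD51B, RAD51C, RAD51D, XRCC2 and XRCC3 stabilise the protein filament formed on it. RAD54L helps the filament invade the sister copy, the BLM, TOP3A, RMI1 and RMI2 complex takes the joined molecules apart, and the nucleases SLX4, MUS81, EME1 and GEN1 cut them. In the Fanconi pathway a core complex holds FANCL, a ubiquitin ligase, which works with the conjugating enzyme UBE2T to mark FANCD2 and FANCI. Many of these genes are expressed mostly in dividing cells.

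Reads counted to genes came to 22.4 to 45.6 M per library, and the mitochondrial share was 7.98 to 31.1% in AM-9747 libraries of PSN1, against 17.4 to 43.8% in its vehicle libraries. The PSN1 vehicle replicates 2 and 3 stood apart, with 19398 and 16646 entries detected and mitochondrial shares of 43.8 and 37.6%. Levels are given in CPM, counts scaled to an equal library size, with TMM scaling within the line except for MTAP. MTAP, the gene described as deleted, lay between 0.13 and 4.33 CPM in all 24 libraries. Of the epithelial markers, KRT8 and KRT18 were at 354 CPM or more in every library, whereas EPCAM and KRT7 were at 1.38 CPM or less in MIAPACA2. Of 6 fibroblast markers, the collagen COL1A2 was at 1110 to 3150 CPM in MIAPACA2, where the other 5 were at 4.16 CPM or less. COL3A1 reached 103 CPM in PSN1. Of 5 leukocyte markers, PTPRC and CD3E were at 1.85 CPM or less in all libraries, while CD14 was at 16.4 to 34.9 CPM and LYZ at 3.9 to 14 CPM in PSN1.

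In BXPC3, AM-9747 lowered 14 members and raised 2, where 16% of the 17638 genes tested were lower and 13.2% higher (edgeR quasi-likelihood test with Benjamini-Hochberg adjustment over all genes tested, adjusted p below 0.05). In MIAPACA2 it lowered 7 and raised 2, against 6.84% and 6.73% of 18090 genes. In PSN1 it lowered 1 and raised 6, against 6.17% and 4.52% of 18287 genes. Log2 fold changes are AM-9747 over vehicle, and their errors are SE derived from the test statistic of the fit, with 4 libraries a group. The median log2 fold change of the members was 0.36 in PSN1, -0.22 in MIAPACA2 and -0.22 in BXPC3, beside 0.03, 0 and 0 over all genes tested. Scaled by library totals alone the median of all genes moved to 0.15 in MIAPACA2 and 0.37 in PSN1, that of the members to -0.07 and 0.70, and the MIAPACA2 counts to 4 lower and 5 higher, beside 3.52% and 10.6% of all genes under that scaling.

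These counts moved with single libraries. The share of all genes called in each of these fits is not given here, so a shift is not a result about the members. The BXPC3 count of lower members was 8 without AM-9747 replicate 2, 9 without AM-9747 replicate 3 and 9 without vehicle replicate 3. In MIAPACA2 the count of lower members was 2 without AM-9747 replicate 1 and 4 without AM-9747 replicate 2, AM-9747 replicate 4 or vehicle replicate 3, and the count of higher members was 1 without AM-9747 replicates 1, 2 or 4 or vehicle replicates 1, 3 or 4. In PSN1 the count of higher members was 3, 1, 1 and 2 without AM-9747 replicates 1, 2, 3 and 4 in turn, and 10, 2 and 3 without vehicle replicates 1, 2 and 4. The single lower member of PSN1, FANCL, was not called without vehicle replicate 2 or any 1 of the AM-9747 libraries, and 2 members were lower without vehicle replicate 1. With both PSN1 vehicle replicates 2 and 3 left out, 0 members were lower and 3 higher at adjusted p below 0.05 (edgeR). In that fit 2 were lower and 11 higher at an unadjusted p below 0.05, and DESeq2 on the same libraries gave 0 lower and 7 higher at adjusted p below 0.05.

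Across the lines, 23 members passed in at least 1 line and 25 in none, and 0 members were lower in 1 line and higher in another. Lower in at least 2 lines were 6 members, RAD51D, XRCC2, EXO1, RMI2, FANCG and FANCL, beside 6.56% of the 14476 genes tested in all lines. Higher in at least 2 lines were RAD52 and BLM, beside 4.55% of genes. FANCL alone was lower in all 3 lines, which 1.16% of genes were, and 0 members were higher in all 3 lines, which 0.718% of genes were. In bulk RNA, fewer cells expressing a gene and less RNA per cell cannot be told apart.

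**Figure D1:**
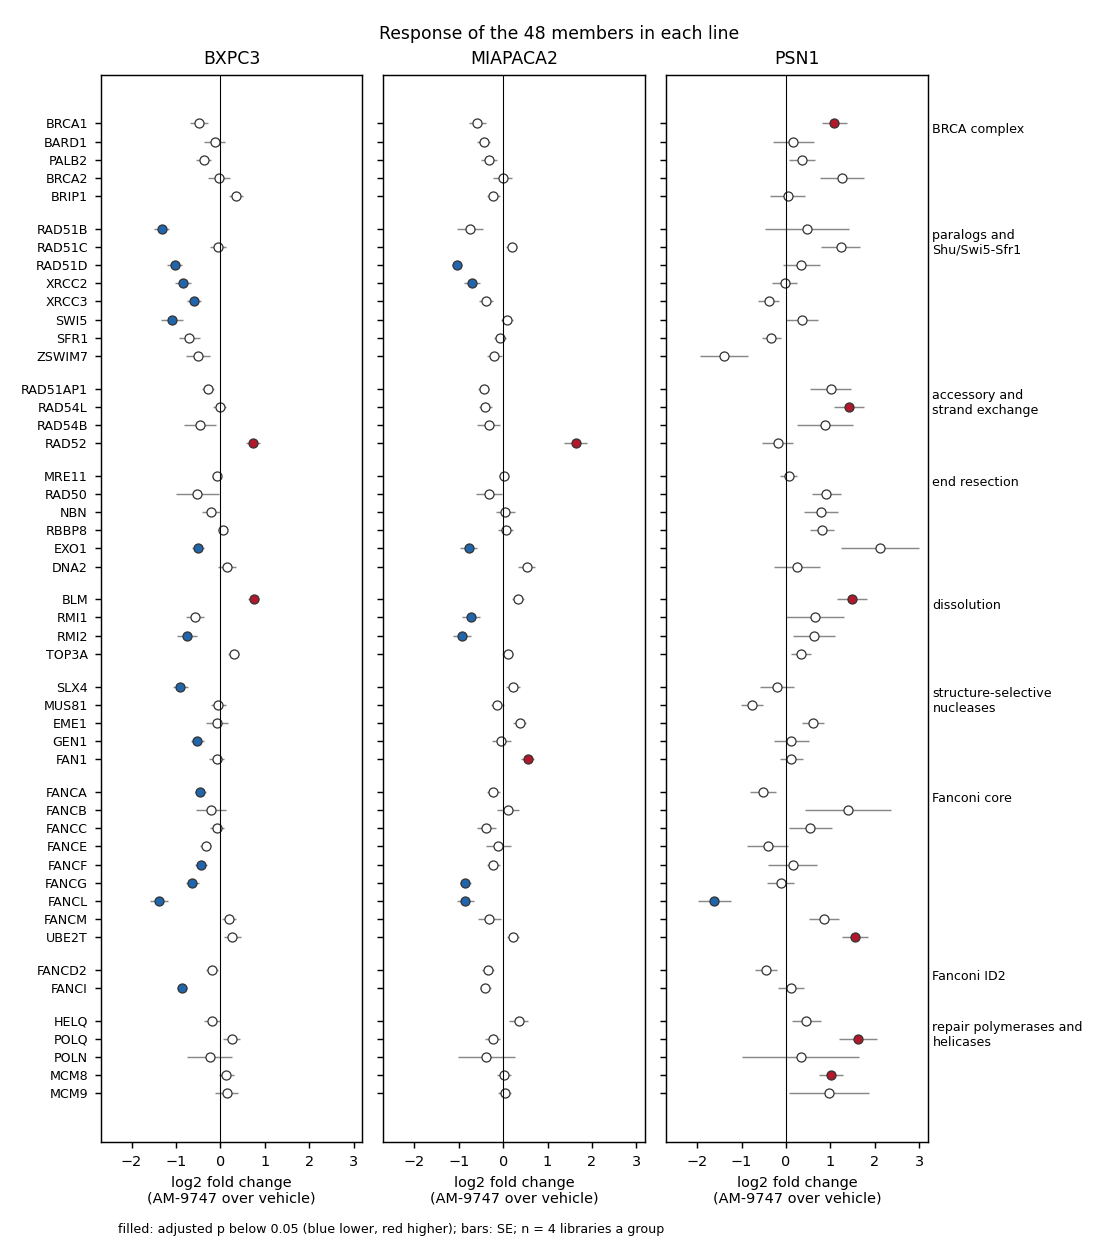
Log2 fold change of each of the 48 members (AM-9747 over vehicle, edgeR, x axis) in BXPC3, MIAPACA2 and PSN1, grouped by role down the page. Points are the fitted values and bars their SE from the fit (4 libraries a group), filled blue (lower) or red (higher) where the adjusted p was below 0.05. Filled points are mostly left of 0 in BXPC3 (14 of 16) and right of 0 in PSN1 (6 of 7).

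The cell cycle genes moved in the same libraries. In PSN1, 13 of 14 G2/M genes and 6 of 17 G1/S genes were higher, with medians of 1.95 and 0.85, and summed G2/M levels of 946 to 1340 CPM with AM-9747, against 231 to 382 CPM with vehicle. In MIAPACA2, 12 of 17 G1/S genes were lower (median -0.80), with summed levels of 697 to 910 CPM with AM-9747, against 1204 to 1489 CPM with vehicle, and 1 of 14 G2/M genes was lower. In BXPC3, 8 of 17 G1/S genes were lower and 1 higher (median -0.46), with sums of 964 to 1110 CPM with AM-9747, against 1227 to 1474 CPM with vehicle, and 6 of 14 G2/M genes were higher. The summed level of the 48 members was 791 to 850 CPM with AM-9747 and 619 to 721 CPM with vehicle in PSN1, which do not overlap. In MIAPACA2 it was 1008 to 1054 CPM with AM-9747 and 1050 to 1219 CPM with vehicle. In BXPC3 it was 976 to 1059 CPM with AM-9747 and 1019 to 1223 CPM with vehicle, and both of these pairs overlap. The part of the cell cycle genes in the members' response was not tested. The 6 fibroblast markers, nearly all COL1A2 in MIAPACA2, summed to 1115 to 1863 CPM with AM-9747, against 1893 to 3152 CPM with vehicle, in that line. They summed to 137 to 166 CPM with AM-9747, against 39.4 to 60.8 CPM with vehicle, in PSN1. In BXPC3 the sums were 42.6 to 52.6 CPM with AM-9747, against 25.7 to 29.3 CPM with vehicle. The groups did not overlap in any line. The 4 endothelial markers summed to 27.8 to 33 CPM with AM-9747, against 15.1 to 19.6 CPM with vehicle, in BXPC3, and 49.3 to 55 CPM with AM-9747, against 40.4 to 54.8 CPM with vehicle, in PSN1. In MIAPACA2 they were at 0.706 CPM or less. The 5 leukocyte markers summed to 20.9 to 48 CPM with AM-9747, against 21.8 to 41.9 CPM with vehicle, in PSN1, and to 6.71 CPM or less elsewhere. The part of these markers in the members' response was not tested.

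**Figure D2:**
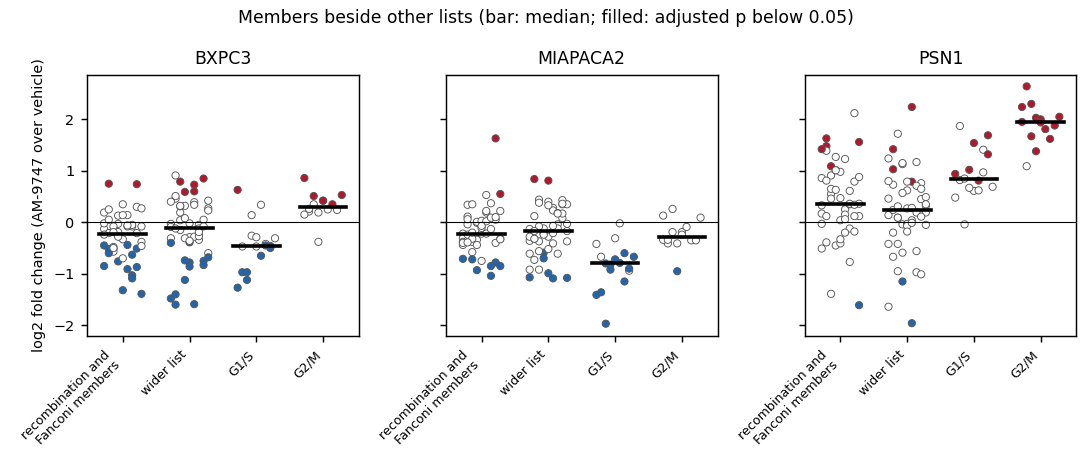
Log2 fold change (AM-9747 over vehicle, y axis) of each gene of 4 lists in each line, with the list's median as a bar and points filled where the adjusted p was below 0.05. The G2/M median is 1.95 in PSN1 and the G1/S median -0.80 in MIAPACA2, while the medians of the 48 members are 0.36 and -0.22 in those lines.

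The Fanconi core complex held the member with the smallest adjusted p of the mean response over the 3 lines. FANCL, the ligase of the core (chr2:58159243-58241372, minus strand, in GRCh38 as are all gene positions here), fell in all 3 lines. In BXPC3 it had 6.07, 6.73, 7.3 and 10.6 CPM with AM-9747, against 16.7, 20.9, 19 and 23.7 CPM with vehicle (log2 -1.39 ± 0.20, adjusted p = 0.000790). In MIAPACA2 it had 19.4, 20.5, 12.1 and 20.9 CPM with AM-9747, against 34.7, 27.2, 29.5 and 39.7 CPM with vehicle (log2 -0.85 ± 0.20, adjusted p = 0.0177). In PSN1 it had 5.57, 5.08, 6.52 and 8.63 CPM with AM-9747, against 14.2, 16.7, 35.1 and 12.9 CPM with vehicle (log2 -1.61 ± 0.37, adjusted p = 0.0221). Every AM-9747 library lay below every vehicle library of its line, in each of the 3 lines. The mean response was log2 -1.28 ± 0.16, adjusted p = 2.56e-06, and the test of a difference between the lines gave an adjusted p of 0.377. The PSN1 call was lost without replicate 1, 2, 3 or 4 of AM-9747 or replicate 2 of vehicle (adjusted p = 0.0503 to 0.0869), without vehicle replicates 2 and 3 together (log2 -1.06, adjusted p = 0.0950) and with the mitochondrial share in the model (log2 -1.26, adjusted p = 0.0777). In MIAPACA2 the call was lost without replicate 1 of AM-9747 (adjusted p = 0.0517) and in the joint fit of the 6 groups (adjusted p = 0.0683). Exons of opposite-strand genes, mostly VRK2, cover 19.7% of the exon bases of FANCL, and whether reads were counted by strand is not given in the sources used here.

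FAAP100, a core subunit that binds FANCL and FANCB and is not a member of the 48, was lower in all 3 lines as well. It had 6.08, 6.4, 8.74 and 8.73 CPM with AM-9747, against 20.3, 27.5, 30.4 and 38 CPM with vehicle in PSN1 (log2 -1.96 ± 0.28, adjusted p = 0.00318). Its log2 fold change was -1.59 in BXPC3 (adjusted p = 0.00305) and -1.09 in MIAPACA2 (adjusted p = 0.00332), and its groups did not overlap in any line. FANCB, the remaining subunit of that trio, passed in none of the lines, with log2 1.39 ± 0.97 (adjusted p = 0.378) in PSN1, log2 -0.21 ± 0.33 (adjusted p = 0.681) in BXPC3 and log2 0.11 ± 0.25 (adjusted p = 0.796) in MIAPACA2.

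FANCG, which with FANCA and FAAP20 forms another arm of the core (chr9:35073835-35080016, minus strand), fell in BXPC3 and MIAPACA2. In MIAPACA2 it had 21.7, 20.5, 24.7 and 22.6 CPM with AM-9747, against 39.5, 40.4, 42.2 and 39.6 CPM with vehicle (log2 -0.85 ± 0.12, adjusted p = 0.00142). BXPC3 had 17.9, 19, 19.1 and 22.1 CPM with AM-9747, against 27.6, 27.2, 29.8 and 36.8 CPM with vehicle (log2 -0.63 ± 0.14, adjusted p = 0.00680). In both lines all AM-9747 libraries lay below all vehicle libraries, while PSN1 gave overlapping groups (17.5 to 31.1 CPM with AM-9747 and 14.4 to 35.8 CPM with vehicle; log2 -0.12 ± 0.31, adjusted p = 0.836). FANCA, the partner of FANCG, fell in BXPC3, with 17.1, 20.6, 22.3 and 24 CPM with AM-9747, against 29.4, 25.6, 30.5 and 29.5 CPM with vehicle (log2 -0.45 ± 0.13, adjusted p = 0.0290). Its groups did not overlap there, but the call was lost without replicate 1, 2 or 3 of AM-9747 or replicate 1 or 3 of vehicle (adjusted p = 0.0534 to 0.0848). It was also lost with a filter at a mean of 5 CPM (adjusted p = 0.0616) and in the joint fit of the 6 groups (adjusted p = 0.139). In MIAPACA2 FANCA gave 43 to 60.5 CPM with AM-9747 and 53.4 to 69.7 CPM with vehicle, and in PSN1 9.99 to 16.4 CPM with AM-9747 and 11.1 to 22.7 CPM with vehicle. Its mean response over the lines was log2 -0.39 ± 0.11, adjusted p = 0.0124, and did not pass by library totals (log2 -0.23, adjusted p = 0.108). Exons of ZNF276 on the opposite strand cover 23.6% of its exon bases. FANCF, an adaptor within the core, had 8.44, 7.21, 9.3 and 10 CPM with AM-9747, against 10.8, 12.5, 12.3 and 11.8 CPM with vehicle in BXPC3 (log2 -0.44 ± 0.14, adjusted p = 0.0436), again without overlap. That call was lost without replicate 1, 2 or 3 of AM-9747 or replicate 1, 2 or 3 of vehicle (adjusted p = 0.0640 to 0.120). It was also lost with median-of-ratios scaling (adjusted p = 0.0570), with no filter on low counts (adjusted p = 0.0673), with a filter at a mean of 5 CPM (adjusted p = 0.0757) and in the joint fit of the 6 groups (adjusted p = 0.554). FANCF gave 9.78 to 11.1 CPM with AM-9747 and 11.5 to 13.1 CPM with vehicle in MIAPACA2, without overlap and with log2 -0.22 ± 0.14, adjusted p = 0.311. In PSN1 it gave 8.93 to 15.7 CPM with AM-9747 and 1.38 to 16.4 CPM with vehicle, which overlap. FANCC and FANCE, which sit beside FANCF, passed in none of the lines. Their log2 fold changes were 0.55 and -0.41 in PSN1, -0.38 and -0.11 in MIAPACA2, and -0.08 and -0.33 in BXPC3.

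Of the 9 members counted with the core, 1 fell in PSN1, 2 fell in MIAPACA2 and 4 fell in BXPC3. The 1 that rose, in PSN1, was the conjugating enzyme UBE2T (chr1:202331657-202341980, minus strand). In PSN1 UBE2T had 36.8, 39, 34.2 and 48.8 CPM with AM-9747, against 20.1, 11.3, 7.96 and 14.5 CPM with vehicle (log2 1.56 ± 0.30, adjusted p = 0.0110). All AM-9747 libraries lay above all vehicle libraries. The call held in each of the fits run in PSN1, including those that left out single libraries or vehicle replicates 2 and 3 together. In BXPC3 UBE2T gave 27.4 to 44 CPM with AM-9747 and 24.3 to 37.6 CPM with vehicle, in MIAPACA2 17.7 to 21.7 CPM with AM-9747 and 14.9 to 19.3 CPM with vehicle, overlapping in both. The 3 responses differed between the lines (adjusted p = 0.00918), a call lost without PSN1 vehicle replicates 2 and 3 together (adjusted p = 0.0669). FANCM, the helicase that anchors the core on DNA, was at log2 0.86 ± 0.33 (adjusted p = 0.114) in PSN1 and passed in none of the lines.

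**Figure D3:**
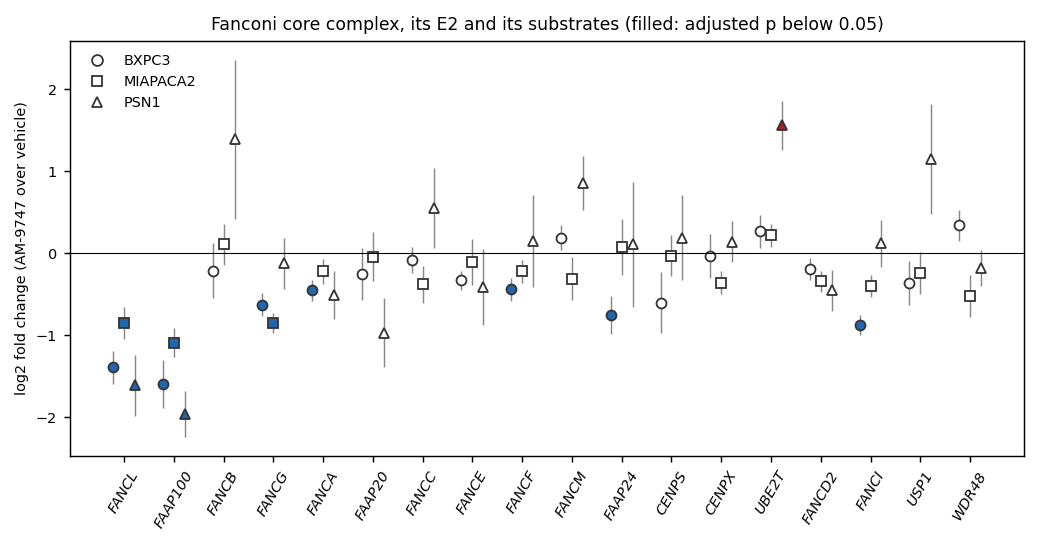
Log2 fold change (AM-9747 over vehicle, y axis) with SE from the fit (4 libraries a group) for the Fanconi core complex, its partners, UBE2T and the substrates FANCD2 and FANCI (x axis), in BXPC3 (circles), MIAPACA2 (squares) and PSN1 (triangles). Filled symbols had an adjusted p below 0.05; FANCL and FAAP100 are filled and below 0 in all 3 lines, and UBE2T is filled and above 0 in PSN1.

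Of the substrates of the core, FANCI passed in 1 line and FANCD2 in none. FANCI (chr15:89243949-89317261, plus strand) fell in BXPC3, where it had 51.5, 47.9, 50.7 and 62.7 CPM with AM-9747, against 103, 99.3, 97.8 and 90.6 CPM with vehicle (log2 -0.87 ± 0.12, adjusted p = 0.000623), with no overlap between the groups. MIAPACA2 gave 35.9 to 42 CPM with AM-9747 and 44.4 to 56.9 CPM with vehicle (log2 -0.40 ± 0.13, adjusted p = 0.0576). PSN1 gave 27.9 to 41.6 CPM with AM-9747 and 20.1 to 52.1 CPM with vehicle (log2 0.12 ± 0.29, adjusted p = 0.831). FANCD2, its partner, gave 24.6 to 28.6 CPM with AM-9747 and 24.5 to 34.9 CPM with vehicle in BXPC3, and 13.6 to 22 CPM with AM-9747 and 19.1 to 30.9 CPM with vehicle in PSN1. In MIAPACA2 the ranges were 17 to 18.5 CPM with AM-9747 and 19.6 to 25.7 CPM with vehicle, without overlap. Its log2 fold change was negative in each line (-0.19, -0.34 and -0.45) and its mean response passed, at log2 -0.32 ± 0.10, adjusted p = 0.0237. The mean response of FANCD2 did not pass by library totals (log2 -0.15, adjusted p = 0.377) or with no filter on low counts (adjusted p = 0.0678). By library totals that of FANCI did not pass either (log2 -0.23, adjusted p = 0.136).

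The paralogs RAD51B, RAD51C, RAD51D, XRCC2 and XRCC3 and the smaller factors grouped with them, SWI5, SFR1 and ZSWIM7, were the role with the lowest median in BXPC3: all 8 had a log2 fold change below 0 there, with a median of -0.78, and 5 passed as lower. RAD51D, a paralog of the RAD51B, RAD51C, RAD51D and XRCC2 complex (chr17:35092208-35121522, minus strand), fell in BXPC3 and MIAPACA2. It had 14.4, 15, 14.4 and 15.5 CPM with AM-9747, against 28, 33.9, 30.5 and 29.4 CPM with vehicle in MIAPACA2 (log2 -1.04 ± 0.12, adjusted p = 0.000772). In BXPC3 it had 5.05, 4.47, 3.33 and 4.96 CPM with AM-9747, against 9.32, 8.67, 9.79 and 8.56 CPM with vehicle (log2 -1.03 ± 0.17, adjusted p = 0.00169). The groups were well apart in both lines, and the calls held in every fit run in those lines. PSN1 gave 5.66 to 10.2 CPM with AM-9747 and 2.49 to 8.41 CPM with vehicle with overlap (log2 0.35 ± 0.41, adjusted p = 0.617), and the responses differed between the lines (adjusted p = 0.0167). Exons of same-strand entries, mostly a readthrough transcript with the neighbouring gene, cover 8.9% of its exon bases.

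XRCC2, its partner in the complex (chr7:152644779-152676165, minus strand), moved likewise. In BXPC3 it had 4.39, 2.95, 4.45 and 4.46 CPM with AM-9747, against 7.25, 8.36, 7.38 and 6.41 CPM with vehicle (log2 -0.85 ± 0.18, adjusted p = 0.00655). MIAPACA2 had 10.5, 12.5, 15.5 and 9.97 CPM with AM-9747, against 18.7, 17.7, 19 and 23.8 CPM with vehicle (log2 -0.71 ± 0.18, adjusted p = 0.0236). Neither line showed an overlap, but the MIAPACA2 call was lost without replicate 1, 2 or 4 of AM-9747 or replicate 3 of vehicle (adjusted p = 0.0575 to 0.0850). The same call was lost by library totals (adjusted p = 0.0696) and in the joint fit of the 6 groups (adjusted p = 0.0574). PSN1 gave 7.96 to 13.6 CPM with AM-9747 and 8.28 to 12.3 CPM with vehicle, overlapping. RAD51B, of the same complex, had 2.14, 1.88, 2.24 and 2.44 CPM with AM-9747, against 4.81, 5.49, 5.67 and 5.84 CPM with vehicle in BXPC3 (log2 -1.32 ± 0.17, adjusted p = 0.000417), with no overlap, a call lost in the joint fit of the 6 groups (adjusted p = 0.183). RAD51B did not pass in MIAPACA2 (1.24 to 2.51 CPM with AM-9747 and 2.77 to 3.93 CPM with vehicle). It did not pass in PSN1 either (1.65 to 3.76 CPM with AM-9747 and 0 to 3.95 CPM with vehicle). XRCC3, which pairs with RAD51C, had 16.7, 18.9, 21.2 and 22.9 CPM with AM-9747, against 29.6, 24.5, 29.6 and 36.8 CPM with vehicle in BXPC3 (log2 -0.60 ± 0.16, adjusted p = 0.0171). Its AM-9747 libraries were all below its vehicle libraries, and the call was lost without replicate 2 of AM-9747 (adjusted p = 0.0546). Exons of KLC1 on the opposite strand cover 76.7% of the exon bases of XRCC3, which makes its counts uncertain. XRCC3 gave 12.8 to 16 CPM with AM-9747 and 14 to 21.9 CPM with vehicle in MIAPACA2. It gave 15.4 to 23.5 CPM with AM-9747 and 18.6 to 26.6 CPM with vehicle in PSN1, and its mean response was log2 -0.45 ± 0.11, adjusted p = 0.00306. RAD51C passed in none of the lines, at log2 -0.06 in BXPC3, 0.19 in MIAPACA2 and log2 1.23 ± 0.45 (adjusted p = 0.104) in PSN1.

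SWI5 and SFR1 form a complex that stimulates strand exchange. SWI5 had 7.47, 7.53, 9.41 and 13.1 CPM with AM-9747, against 17, 17.2, 16.3 and 29.2 CPM with vehicle in BXPC3 (log2 -1.09 ± 0.25, adjusted p = 0.00914), where every AM-9747 library was below every vehicle library. Its log2 fold change was 0.09 in MIAPACA2 (13.2 to 16.2 CPM with AM-9747 and 12.2 to 15.7 CPM with vehicle). In PSN1 it was 0.36 (6.44 to 10.8 CPM with AM-9747 and 3.98 to 8.98 CPM with vehicle). The responses of SWI5 differed between the lines (adjusted p = 0.0235), a call lost without any 1 of BXPC3 AM-9747 replicates 1, 2 and 3, or BXPC3 vehicle replicate 4 (adjusted p = 0.0506 to 0.0618). SFR1 passed in none of the lines but in the mean response, at log2 -0.36 ± 0.11, adjusted p = 0.0201. It gave 1.76 to 3.39 CPM with AM-9747 and 3.1 to 4.78 CPM with vehicle in BXPC3, and 24.2 to 32.7 CPM with AM-9747 and 28.4 to 35 CPM with vehicle in MIAPACA2. In PSN1 SFR1 gave 33.2 to 52.5 CPM with AM-9747 and 48.8 to 61.7 CPM with vehicle. ZSWIM7, the SWIM-domain subunit of the human Shu complex, also passed in the mean response only (log2 -0.69 ± 0.22, adjusted p = 0.0210). Its ranges were 1.28 to 2.51 CPM with AM-9747 and 2.03 to 3.46 CPM with vehicle in BXPC3, and 9.76 to 13.4 CPM with AM-9747 and 11.3 to 16.4 CPM with vehicle in MIAPACA2. PSN1 gave 2.17 to 2.74 CPM with AM-9747 and 2.61 to 14.4 CPM with vehicle. By library totals neither passed (adjusted p = 0.146 for SFR1 and 0.0730 for ZSWIM7), nor did the mean response of XRCC2 (log2 -0.36, adjusted p = 0.0739).

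**Figure D4:**
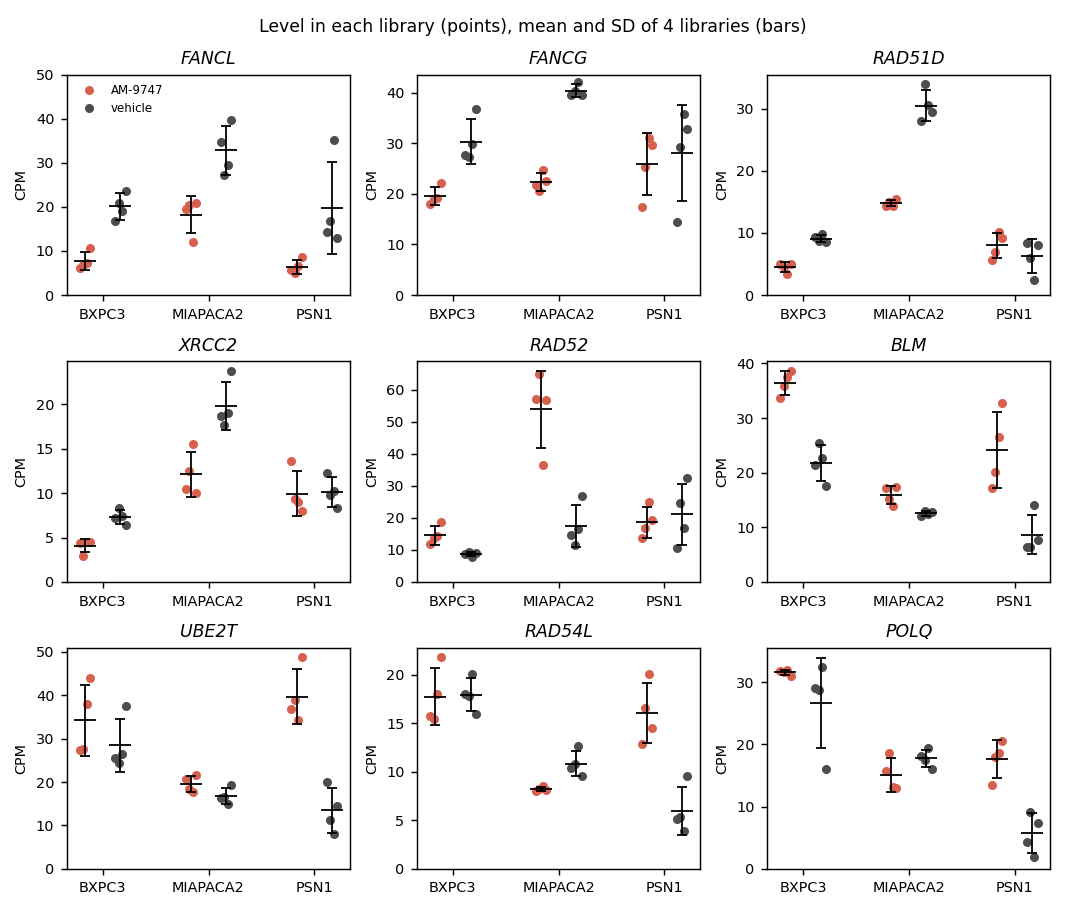
CPM (TMM-scaled within the line, y axis, from 0) of 9 members in each library, with AM-9747 (orange) left of vehicle (grey) for each line on the x axis. Points are libraries, and bars the mean and SD of 4. FANCL is lower with AM-9747 in each line, RAD51D and FANCG in BXPC3 and MIAPACA2, RAD52 is higher in those lines, and BLM, UBE2T, RAD54L and POLQ are higher in PSN1.

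RAD52, which anneals single strands (chr12:912077-990053, minus strand), was the member raised in both BXPC3 and MIAPACA2. In MIAPACA2 it had 57.1, 64.9, 36.6 and 56.9 CPM with AM-9747, against 14.8, 11.6, 16.4 and 26.9 CPM with vehicle (log2 1.63 ± 0.26, adjusted p = 0.00307). In BXPC3 it had 11.7, 13.7, 14.3 and 18.7 CPM with AM-9747, against 8.8, 9.22, 7.9 and 8.97 CPM with vehicle (log2 0.74 ± 0.16, adjusted p = 0.00753). The lowest AM-9747 library was above the highest vehicle library in both. PSN1 gave 13.6 to 24.9 CPM with AM-9747 and 10.7 to 32.6 CPM with vehicle, which overlap (log2 -0.18 ± 0.35, adjusted p = 0.773), and the responses differed between the lines (adjusted p = 0.0158). The MIAPACA2 call held in every fit run there, and the BXPC3 call was lost in the joint fit of the 6 groups (adjusted p = 0.102).

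RAD54L, the motor protein that drives strand invasion (chr1:46247688-46278473, plus strand), had the smallest adjusted p of the members for a difference between the lines (0.000753). In PSN1 it rose, with 12.9, 16.6, 20.1 and 14.5 CPM with AM-9747, against 5.12, 5.32, 3.87 and 9.52 CPM with vehicle (log2 1.42 ± 0.34, adjusted p = 0.0241). No library of one group reached the other there, yet the call was lost without replicate 2, 3 or 4 of AM-9747 or replicate 2 of vehicle (adjusted p = 0.0598 to 0.0855), and without vehicle replicates 2 and 3 together (log2 1.16, adjusted p = 0.101). RAD54L gave 7.98 to 8.5 CPM with AM-9747 and 9.56 to 12.6 CPM with vehicle in MIAPACA2 (log2 -0.40 ± 0.15, adjusted p = 0.106). BXPC3 gave 15.4 to 21.8 CPM with AM-9747 and 15.9 to 20.1 CPM with vehicle (log2 -0.02 ± 0.15, adjusted p = 0.935), and neither line passed. Exons of LRRC41 on the opposite strand cover 25.1% of its exon bases. RAD51AP1, a DNA-binding factor of strand exchange, passed in none of the lines but differed between them (adjusted p = 0.0117, and 0.0614 with the mitochondrial share in the model). It gave 2.86 to 6.31 CPM with AM-9747 and 1.42 to 3.82 CPM with vehicle in PSN1, and 14.4 to 16.4 CPM with AM-9747 and 15.4 to 21.6 CPM with vehicle in BXPC3. MIAPACA2 gave 13.3 to 17.5 CPM with AM-9747 and 19 to 20.9 CPM with vehicle. RAD54B, the relative of RAD54L, was at log2 0.88 ± 0.63 (adjusted p = 0.388) in PSN1. Exons of FSBP, on the same strand, cover 59.1% of its exon bases.

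Among the BRCA1 and BRCA2 group, BRCA1 passed in PSN1 and the other 4 members passed in none of the lines. BRCA1, the ubiquitin ligase that starts end processing with BARD1 (chr17:43044295-43170245, minus strand), had 17.5, 18.1, 19.3 and 18.6 CPM with AM-9747, against 8.08, 8.46, 5.52 and 12.4 CPM with vehicle in PSN1 (log2 1.09 ± 0.28, adjusted p = 0.0347). All AM-9747 libraries were above all vehicle libraries. The call was lost without replicate 1, 2, 3 or 4 of AM-9747 or replicate 2 of vehicle (adjusted p = 0.0731 to 0.108), without vehicle replicates 2 and 3 together (log2 0.86, adjusted p = 0.119) and with the mitochondrial share in the model (adjusted p = 0.0665). BRCA1 gave 17.5 to 26.1 CPM with AM-9747 and 18.8 to 33.9 CPM with vehicle in BXPC3 (log2 -0.48 ± 0.20, adjusted p = 0.102). It gave 18.2 to 25.4 CPM with AM-9747 and 22.4 to 40.7 CPM with vehicle in MIAPACA2 (log2 -0.58 ± 0.19, adjusted p = 0.0688). The responses differed between the lines (adjusted p = 0.00157). BRCA2, the filament loader, was at log2 1.27 ± 0.50 (adjusted p = 0.123) in PSN1. BARD1, PALB2 and BRIP1 were at log2 0.17, 0.36 and 0.04 there, at -0.13, -0.38 and 0.35 in BXPC3, and at -0.44, -0.32 and -0.22 in MIAPACA2.

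In end resection only the exonuclease EXO1 (chr1:241847967-241895148, plus strand) passed in any line. EXO1 had 10.1, 8.11, 12.6 and 10.1 CPM with AM-9747, against 14.9, 19.6, 21.7 and 14 CPM with vehicle in MIAPACA2 (log2 -0.78 ± 0.19, adjusted p = 0.0246). In BXPC3 it had 9.26, 9.2, 8.9 and 7.8 CPM with AM-9747, against 10.8, 14.3, 13.8 and 11.4 CPM with vehicle (log2 -0.51 ± 0.14, adjusted p = 0.0233). The groups did not overlap in either line. The MIAPACA2 call was lost without replicate 1, 2 or 4 of AM-9747 or replicate 3 of vehicle (adjusted p = 0.0691 to 0.0815), and by library totals (adjusted p = 0.0757) and in the joint fit of the 6 groups (adjusted p = 0.477). The BXPC3 call was lost without replicate 2, 3 or 4 of AM-9747 or replicate 2 or 3 of vehicle (adjusted p = 0.0528 to 0.0748), and in the joint fit of the 6 groups (adjusted p = 0.637). PSN1 gave 7.95 to 19.7 CPM with AM-9747 and 0 to 5.99 CPM with vehicle, without overlap and with a wide error (log2 2.12 ± 0.87, adjusted p = 0.141). The responses differed between the lines (adjusted p = 0.0204), except without any 1 of PSN1 AM-9747 replicate 1, or PSN1 vehicle replicate 4 (adjusted p = 0.0539 to 0.0570). MRE11, RAD50 and NBN, the sensor complex, did not pass in any line. Their log2 fold changes were 0.06, 0.91 and 0.79 in PSN1, 0.02, -0.32 and 0.05 in MIAPACA2, and -0.08, -0.52 and -0.21 in BXPC3. A same-strand entry overlaps 79.7% of the exon bases of RAD50. RBBP8, the cofactor of MRE11, and the nuclease DNA2 were at log2 0.81 ± 0.27 (adjusted p = 0.0768) and log2 0.25 ± 0.52 (adjusted p = 0.792) in PSN1.

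In the dissolution complex BLM was higher, and RMI1 and RMI2 lower, where they passed. BLM, the helicase (chr15:90717327-90816165, plus strand), rose in BXPC3 and PSN1. In PSN1 it had 17.2, 20.1, 26.6 and 32.8 CPM with AM-9747, against 6.47, 6.47, 14.1 and 7.68 CPM with vehicle (log2 1.48 ± 0.34, adjusted p = 0.0220). BXPC3 had 33.7, 35.8, 37.5 and 38.7 CPM with AM-9747, against 21.4, 25.4, 22.6 and 17.5 CPM with vehicle (log2 0.75 ± 0.13, adjusted p = 0.00273). The groups were separate in both. In MIAPACA2 BLM gave 13.9 to 17.4 CPM with AM-9747 and 12 to 13 CPM with vehicle without overlap (log2 0.34 ± 0.14, adjusted p = 0.122), and the mean response was log2 0.86 ± 0.13, adjusted p = 2.27e-05. The PSN1 call was lost without replicate 2, 3 or 4 of AM-9747 or replicate 2 or 4 of vehicle (adjusted p = 0.0557 to 0.0750). RMI2, an OB-fold subunit of the same complex, fell in BXPC3, with 13, 14, 17.8 and 23.6 CPM with AM-9747, against 21.9, 28.7, 26.2 and 39.2 CPM with vehicle (log2 -0.76 ± 0.23, adjusted p = 0.0313). MIAPACA2 had 7.9, 9.38, 6.2 and 10.7 CPM with AM-9747, against 20.5, 15.7, 13.1 and 15.7 CPM with vehicle (log2 -0.93 ± 0.21, adjusted p = 0.0148). RMI2 overlapped between the groups in BXPC3 and not in MIAPACA2, and PSN1 gave 4.59 to 8.31 CPM with AM-9747 and 1.29 to 5.89 CPM with vehicle. Its BXPC3 call was lost without replicate 1, 2 or 3 of AM-9747 or replicate 2 or 3 of vehicle (adjusted p = 0.0538 to 0.0925), and with a filter at a mean of 5 CPM (adjusted p = 0.0556) and in the joint fit of the 6 groups (adjusted p = 0.141). Its MIAPACA2 call was lost without replicate 1 of AM-9747 (adjusted p = 0.0563), and in the joint fit of the 6 groups (adjusted p = 0.0967). RMI1, the other OB-fold subunit, had 9.21, 8.89, 10.8 and 8.3 CPM with AM-9747, against 13.1, 19.9, 16.8 and 11.3 CPM with vehicle in MIAPACA2 (log2 -0.72 ± 0.20, adjusted p = 0.0346), without overlap. That call was lost without replicate 1, 2 or 4 of AM-9747 or replicate 2 or 3 of vehicle (adjusted p = 0.0727 to 0.0980). RMI1 did not pass there by library totals (adjusted p = 0.104) and in the joint fit of the 6 groups (adjusted p = 0.382). RMI1 gave 6.84 to 8.77 CPM with AM-9747 and 7.65 to 13.9 CPM with vehicle in BXPC3. PSN1 gave 3.19 to 6.01 CPM with AM-9747 and 0.532 to 5.2 CPM with vehicle for RMI1. TOP3A, the topoisomerase, passed only in the mean response (log2 0.25 ± 0.09, adjusted p = 0.0369). It gave 28.8 to 36.6 CPM with AM-9747 and 23.8 to 27.4 CPM with vehicle in BXPC3, and 45.5 to 53.6 CPM with AM-9747 and 41.3 to 53.7 CPM with vehicle in MIAPACA2. In PSN1 TOP3A gave 27.3 to 37.5 CPM with AM-9747 and 19.6 to 28.3 CPM with vehicle. Its call was lost with no filter on low counts (adjusted p = 0.233) and without PSN1 vehicle replicates 2 and 3 together (adjusted p = 0.0820). It was also lost without any 1 of BXPC3 AM-9747 replicates 1 and 2, BXPC3 vehicle replicates 2, 3 and 4, MIAPACA2 AM-9747 replicates 2, 3 and 4, MIAPACA2 vehicle replicates 1, 3 and 4, PSN1 AM-9747 replicate 3, or PSN1 vehicle replicate 2 (adjusted p = 0.0521 to 0.0884).

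Among the structure-selective nucleases, SLX4, the scaffold that holds several of them, fell in BXPC3 (4.36, 3.75, 4.61 and 4.88 CPM with AM-9747, against 8.41, 9.4, 8.71 and 6.57 CPM with vehicle; log2 -0.91 ± 0.17, adjusted p = 0.00306). Its groups did not overlap, and the call held in every fit run in BXPC3. SLX4 gave 16 to 21.3 CPM with AM-9747 and 14.5 to 17.8 CPM with vehicle in MIAPACA2. It gave 14.8 to 23.5 CPM with AM-9747 and 8.86 to 28.9 CPM with vehicle in PSN1. GEN1, a resolvase, had 7.7, 7.33, 8.02 and 9.42 CPM with AM-9747, against 11.8, 11.3, 13.7 and 9.85 CPM with vehicle in BXPC3 (log2 -0.52 ± 0.15, adjusted p = 0.0263), where the groups were separate. That call was lost without replicate 1, 2 or 3 of AM-9747 or replicate 1, 2 or 3 of vehicle (adjusted p = 0.0507 to 0.0874). GEN1 did not pass there in the joint fit of the 6 groups (adjusted p = 0.277). GEN1 gave 21.3 to 33.6 CPM with AM-9747 and 19 to 34.9 CPM with vehicle in MIAPACA2, and 10.8 to 20.1 CPM with AM-9747 and 8.93 to 26.5 CPM with vehicle in PSN1. FAN1, a nuclease that acts with FANCD2, rose in MIAPACA2, with 47.8, 55, 37.5 and 50.8 CPM with AM-9747, against 31.5, 35.7, 32.9 and 30.2 CPM with vehicle (log2 0.55 ± 0.14, adjusted p = 0.0266). The lowest AM-9747 library exceeded the highest vehicle library, and the call was lost without replicate 1, 2 or 4 of AM-9747 or replicate 1, 3 or 4 of vehicle (adjusted p = 0.0517 to 0.0889). It was also lost in the joint fit of the 6 groups (adjusted p = 0.132). FAN1 gave 32.5 to 46.1 CPM with AM-9747 and 29.4 to 43.7 CPM with vehicle in BXPC3, and 52 to 85.7 CPM with AM-9747 and 38.8 to 76.5 CPM with vehicle in PSN1. Exons of MTMR10 on the opposite strand cover 24.3% of its exon bases. MUS81 passed only in the mean response (log2 -0.31 ± 0.11, adjusted p = 0.0424), a call lost by library totals (adjusted p = 0.297), with no filter on low counts (adjusted p = 0.0851) and with the mitochondrial share in the model (adjusted p = 0.0839). It gave 20.7 to 30.7 CPM with AM-9747 and 22.1 to 30.8 CPM with vehicle in BXPC3, and 27.3 to 35 CPM with AM-9747 and 32.1 to 40.6 CPM with vehicle in MIAPACA2. In PSN1 MUS81 gave 16.5 to 27.7 CPM with AM-9747 and 28.1 to 47.6 CPM with vehicle, without overlap. Its call was lost without any 1 of BXPC3 AM-9747 replicates 1 and 2, BXPC3 vehicle replicates 1, 3 and 4, MIAPACA2 AM-9747 replicates 1, 2, 3 and 4, MIAPACA2 vehicle replicates 1, 3 and 4, PSN1 AM-9747 replicates 1 and 2, or PSN1 vehicle replicate 4 (adjusted p = 0.0513 to 0.0810). Its partner EME1 passed nowhere, at log2 0.61 ± 0.25 (adjusted p = 0.143) in PSN1.

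Of the repair polymerases and helicases, POLQ and MCM8 rose in PSN1 and none of the 5 passed in BXPC3 or MIAPACA2. POLQ, the polymerase of microhomology-mediated end joining (chr3:121431427-121546641, minus strand), had 13.4, 18, 18.6 and 20.6 CPM with AM-9747, against 4.35, 9.13, 1.91 and 7.35 CPM with vehicle (log2 1.63 ± 0.43, adjusted p = 0.0363). MCM8, a helicase of the MCM8 and MCM9 pair, had 34.2, 28.1, 26 and 17.2 CPM with AM-9747, against 16.6, 13.8, 10.3 and 11.7 CPM with vehicle (log2 1.01 ± 0.27, adjusted p = 0.0407). Neither gene's groups overlapped in PSN1. The POLQ call was lost without replicate 1, 2, 3 or 4 of AM-9747 or replicate 4 of vehicle (adjusted p = 0.0593 to 0.103). The MCM8 call was lost without replicate 1, 2 or 3 of AM-9747 or replicate 2, 3 or 4 of vehicle (adjusted p = 0.0604 to 0.129), without vehicle replicates 2 and 3 together (log2 0.90, adjusted p = 0.166) and with the mitochondrial share in the model (log2 0.68, adjusted p = 0.166). POLQ gave 31 to 31.9 CPM with AM-9747 and 16.1 to 32.5 CPM with vehicle in BXPC3. It gave 12.9 to 18.6 CPM with AM-9747 and 16.1 to 19.4 CPM with vehicle in MIAPACA2, and the responses differed between the lines (adjusted p = 0.00736). MCM8 gave 54.4 to 78.2 CPM with AM-9747 and 42.5 to 64.4 CPM with vehicle in BXPC3. It gave 35.7 to 50 CPM with AM-9747 and 31.8 to 47 CPM with vehicle in MIAPACA2, with a difference between the lines at adjusted p = 0.0398 in edgeR and 0.0742 in voom. In edgeR that difference was lost with no filter on low counts (adjusted p = 0.0674), with the mitochondrial share in the model (adjusted p = 0.197) and without PSN1 vehicle replicates 2 and 3 together (adjusted p = 0.173). MCM9 was at log2 0.98 ± 0.90 (adjusted p = 0.512) and the helicase HELQ at log2 0.46 ± 0.32 (adjusted p = 0.375) in PSN1. POLN, a DNA polymerase, was at 1.01 CPM or less in every library and passed in none of the lines.

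The 250 bases upstream of the RefSeq start were available for 43 of the 48 members, and those of 4 genes that moved in different ways are shown, cut to the longest stretch outside annotated exons. UBE2T, BLM and RAD54L rose in PSN1, and FANCG fell in BXPC3 and MIAPACA2. Coordinates are of GRCh38.p14, and each sequence is written 5′ to 3′ on the strand of its gene, from RefSeq. Capitals mark the CCAAT box, read as CCAAT on either strand (ATTGG on the reverse), and the CHR, an element described in promoters of mitotic genes, read as TTTGAA or TTCGAA on either strand.
UBE2T, chr1:202341981-202342186, minus strand: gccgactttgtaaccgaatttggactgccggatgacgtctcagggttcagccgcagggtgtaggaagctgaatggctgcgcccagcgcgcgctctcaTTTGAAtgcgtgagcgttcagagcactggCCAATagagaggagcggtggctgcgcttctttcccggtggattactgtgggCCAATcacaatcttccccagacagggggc
BLM, chr15:90717142-90717326, plus strand: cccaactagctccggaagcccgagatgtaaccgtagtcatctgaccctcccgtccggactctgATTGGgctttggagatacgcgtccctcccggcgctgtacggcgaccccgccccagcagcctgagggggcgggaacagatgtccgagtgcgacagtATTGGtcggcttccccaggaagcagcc
RAD54L, chr1:46247438-46247687, plus strand: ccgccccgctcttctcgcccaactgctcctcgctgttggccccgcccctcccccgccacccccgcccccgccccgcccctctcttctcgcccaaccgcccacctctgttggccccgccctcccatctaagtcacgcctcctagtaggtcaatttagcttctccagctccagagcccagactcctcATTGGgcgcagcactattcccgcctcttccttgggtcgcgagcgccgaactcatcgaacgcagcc
FANCG, chr9:35080017-35080192, minus strand: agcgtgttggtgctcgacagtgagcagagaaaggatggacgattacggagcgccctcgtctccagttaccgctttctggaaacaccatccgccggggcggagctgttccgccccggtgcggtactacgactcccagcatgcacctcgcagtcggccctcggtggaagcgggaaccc

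UBE2T held a CHR and 2 CCAAT boxes in its stretch, BLM 2 CCAAT boxes, RAD54L 1, and FANCG none of either. Over the whole 250 bases a CCAAT box was found in 4 of the 8 members higher in at least 1 line (50%), in 5 of the 13 lower in at least 1 line that had a promoter (38.5%), and in 32.7% of 22199 promoters of protein-coding genes. A CHR was found in 2 of those 8 members (25.0%), in 0 of those 13 and in 12.1% of the protein-coding promoters. Of the 22 members with a promoter that were called in no line, 8 held a CCAAT box (36.4%) and 4 a CHR (18.2%). The ETS motif CCGGAAGT was in 7 of the 43 members (16.3%) against 4.41% of protein-coding promoters, and 6 of those 7 passed in none of the lines. An E2F site, read as TTTGGCGC, TTTCCCGC, TTTCGCGC or TTTGCCGC, was in 2 of the 43 members (4.65%) and in 3.48% of protein-coding promoters. A match is a description of the letters in this window only.

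Beyond the named members, 19 of the 48 passed in no test of the response. Their log2 fold changes lay between -0.52 and 0.35 in BXPC3, between -0.44 and 0.53 in MIAPACA2 and between -0.41 and 1.39 in PSN1, with a smallest adjusted p of 0.0585, 0.0570 and 0.0768. The mean response over the lines was lower for 11 members and higher for 6, beside 10.7% and 12.6% of 22883 genes, and by library totals alone for 4 and 14, beside 6.9% and 18.6% of genes under that scaling. The response differed between the lines for 13 members, beside 12.1% of genes. It did so for 8 members without vehicle replicate 4 of PSN1, a fit whose share over all genes is not given here.

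Among 52 further genes of recombination and the Fanconi pathway that were not members, 13 were lower and 5 higher in BXPC3, 6 and 2 of 51 tested in MIAPACA2, and 2 and 4 of 51 tested in PSN1. Their medians were -0.10, -0.17 and 0.24. As background for these counts, 16% of all BXPC3 genes tested were lower and 13.2% higher. The MIAPACA2 shares were 6.84% lower and 6.73% higher, while PSN1 had 6.17% lower and 4.52% higher. SLF1, which brings the SMC5 and SMC6 complex to damage, had 9.76, 12.5, 9.01 and 8.35 CPM with AM-9747, against 3.31, 2.35, 1.43 and 1.27 CPM with vehicle in PSN1 (log2 2.24 ± 0.41, adjusted p = 0.00898). RPA1, the large subunit of the single-strand binding complex, had 60.2, 52.5, 34.4 and 40.3 CPM with AM-9747, against 29.8, 17.7, 7.74 and 14.6 CPM with vehicle (log2 1.42 ± 0.37, adjusted p = 0.0357). Neither gene overlapped between the groups in PSN1. PSMC3IP, a cofactor of DMC1, had 5.39, 3.77, 3.62 and 8.66 CPM with AM-9747, against 13, 9.15, 13.2 and 10.2 CPM with vehicle in MIAPACA2 (log2 -1.08 ± 0.28, adjusted p = 0.0301). BXPC3 had ABRAXAS1, the scaffold of the BRCA1-A complex, at 1.99, 1.4, 0.959 and 1.29 CPM with AM-9747, against 4.29, 4.57, 4.78 and 2.09 CPM with vehicle (log2 -1.48 ± 0.32, adjusted p = 0.00676), and the meiotic recombinase DMC1 at 0.230, 0.506, 0.320 and 0.533 CPM with AM-9747, against 1.14, 1.4, 0.787 and 1.5 CPM with vehicle (log2 -1.60 ± 0.38, adjusted p = 0.0107). Their AM-9747 libraries were all below their vehicle libraries. Exons on the opposite strand cover 29.9% of the exon bases of PSMC3IP and 25.2% of those of ABRAXAS1. Chosen after their values were seen, BRCC3 and BABAM2, the deubiquitinase and another subunit of BRCA1-A, were lower in BXPC3 (log2 -0.78 and -1.12) and in MIAPACA2 (log2 -0.99 and -0.59). The groups of both overlapped in PSN1. Those of BABAM2 also overlapped in MIAPACA2, at 41.4 to 65.3 CPM with AM-9747 and 63.5 to 87.9 CPM with vehicle. UIMC1, listed with them, had 25.7 to 31 CPM with AM-9747, against 17.3 to 20.9 CPM with vehicle in BXPC3. In MIAPACA2 UIMC1 had 50.2 to 61.5 CPM with AM-9747, against 39.6 to 46.2 CPM with vehicle, but did not pass at adjusted p below 0.05. Of the 12 genes listed for BRCA1-A and damage signalling, 3 were lower and 1 higher in BXPC3 (median 0.36). In MIAPACA2 2 were lower and 1, ATM, was higher (median -0.23), and in PSN1 0 passed (median 0.28).

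The starting levels differed between the lines for most members. In vehicle libraries, on a scale shared by all 24 libraries, 41 of the 48 members differed between the lines, beside 76.4% of genes (edgeR F test, adjusted p below 0.05), and line and library preparation cannot be told apart. SFR1 averaged 61.1 ± 4.68 CPM in PSN1, 27.7 ± 2.42 CPM in MIAPACA2 and 4.05 ± 0.754 CPM in BXPC3 (SD, n = 4 each). RBBP8 averaged 21.3 ± 7.70 CPM in PSN1, 24.9 ± 5.76 CPM in MIAPACA2 and 147 ± 7.42 CPM in BXPC3. BRCA1 averaged 9.24 ± 2.92 CPM in PSN1, 27.7 ± 7.29 CPM in MIAPACA2 and 30.2 ± 7.26 CPM in BXPC3. POLQ averaged 6.06 ± 3.28 CPM in PSN1, 15.7 ± 1.32 CPM in MIAPACA2 and 27.8 ± 7.49 CPM in BXPC3. PSN1, the line in which AM-9747 raised BRCA1 and POLQ, had the lowest vehicle level of each. That level is also the base of their PSN1 response, so the low level and the rise are not independent. The PSN1 vehicle libraries had mitochondrial shares of 17.4 to 43.8%. The 7 members that did not pass were RAD51B, DNA2, FANCF, FANCG, FANCL, HELQ and POLN. Per kilobase of exon, the highest vehicle level was that of RBBP8 in BXPC3 (28.9 CPM per kilobase), SFR1 in MIAPACA2 (15.3) and SFR1 in PSN1 (33.7), and the lowest in each line was that of POLN (0.0363, 0.0698 and 0.0357). Exon bases, exon number and gene length were only weakly related to the response across the 48 members, with Spearman coefficients between -0.13 and 0.25, given as a description over genes that share libraries.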

How the data were processed

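RNA of 24 libraries (3 lines, AM-9747 or DMSO vehicle, 4 each) was sequenced. Per the labels' protocols, the library kit (NEBNext Ultra II Directional) keeps the strand. Per the submitters' processing notes, fastp 0.19.8, HISAT2 2.2.0, R 4.0.2 and DESeq2 1.34.0 were used, with the build GRCh38. For the read counter, its strand setting and the annotation the sources used here give no name. The authors deposited raw counts per gene, and each column was matched to its sample by title, with 0 columns left over.

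The members and all gene lists were chosen with earlier results of these data known, so no count here is independent evidence. Each line was fitted alone, since the spread differed (biological coefficient of variation 26.6% in BXPC3, 32.1% in MIAPACA2 and 55.1% in PSN1), by the edgeR 4.0.16 quasi-likelihood test in R 4.3.3, with TMM scaling, filterByExpr and Benjamini-Hochberg adjustment over all genes tested. The mean response, differences between lines and vehicle levels came from 1 joint fit of the 6 groups. Log2 fold changes are AM-9747 over vehicle, with SE. Alternatives were DESeq2 1.42.0, voom (limma 3.58.1) with a spread per line, other scalings and filters (including a mean of at least 5 CPM), the mitochondrial share as covariate, the replicate number as block and single libraries left out. The procedure was tested on simulated data, with the same planted effects in each line. Those data cannot show how well a difference between the lines is found, and no result here rests on them.

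Members that passed in a line, in the mean response or in the difference between lines (29 of 48) are named, with every library's CPM where a line passed and the lowest and highest elsewhere. Of the 52 further genes, the 3 with the largest change among those that passed in each line are named, apart from 1 result that is not reported here. Gene coordinates are from GENCODE 29, matched by Ensembl ID, and promoters from RefSeq, matched by symbol. A member with 0 counts in a library could still have up to 3 at 95% confidence. Such limits cover counting error only.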

Additional observations from a re-analysis of the deposited data

Results flagged for a closer look

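Of 174 groups of 4 libraries examined (29 named members in 6 groups), 13 held 1 library far from the other 3, or 7.47%, where chance alone flags about 5% of such groups. In PSN1 these were vehicle replicate 3 for BLM (14.1 CPM) and ZSWIM7 (14.4 CPM), and AM-9747 replicate 3 for XRCC3 (23.5 CPM), SLX4 (23.5 CPM) and TOP3A (37.5 CPM). In BXPC3 they were AM-9747 replicate 2 for XRCC2 (2.95 CPM) and vehicle replicate 4 for SWI5 (29.2 CPM), FAN1 (29.4 CPM) and UBE2T (37.6 CPM). In MIAPACA2 they were AM-9747 replicate 3 for FANCL (12.1 CPM), MUS81 (27.3 CPM) and MCM8 (50 CPM) and vehicle replicate 4 for RAD51AP1 (19 CPM).

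A difference of the response between the lines, by an edgeR quasi-likelihood F test in the joint fit with adjustment over all genes tested, passed for 13 members. The adjusted p was 0.000753 for RAD54L, 0.00157 for BRCA1, 0.00736 for POLQ and 0.00918 for UBE2T, which all rose in PSN1 alone at adjusted p below 0.05. For RAD51D it was 0.0167 and for RAD52 0.0158, both called in BXPC3 and MIAPACA2. It was 0.0117 for RAD51AP1, 0.0204 for EXO1, 0.0235 for SWI5, 0.0323 for BLM, 0.0361 for RMI2, 0.0398 for MCM8 and 0.0414 for FANCI. Of these, BLM did not pass without any 1 of MIAPACA2 AM-9747 replicates 2 and 3, MIAPACA2 vehicle replicates 2 and 3, PSN1 AM-9747 replicates 3 and 4, or PSN1 vehicle replicates 2 and 4 (adjusted p = 0.0520 to 0.0786). That call was also lost with median-of-ratios scaling (adjusted p = 0.0774) and with no filter on low counts (adjusted p = 0.0688). RMI2 did not pass without any 1 of BXPC3 AM-9747 replicates 2 and 3, BXPC3 vehicle replicate 2, MIAPACA2 AM-9747 replicates 1 and 2, MIAPACA2 vehicle replicates 1 and 2, PSN1 AM-9747 replicates 2 and 4, or PSN1 vehicle replicate 4 (adjusted p = 0.0506 to 0.0754). FANCI did not pass without any 1 of BXPC3 AM-9747 replicates 1, 2 and 3, BXPC3 vehicle replicates 1, 2 and 3, MIAPACA2 AM-9747 replicates 1, 2 and 4, MIAPACA2 vehicle replicates 1, 2 and 3, PSN1 AM-9747 replicates 2 and 4, or PSN1 vehicle replicates 2 and 4 (adjusted p = 0.0506 to 0.0838). That call was also lost with median-of-ratios scaling (adjusted p = 0.0960) and with no filter on low counts (adjusted p = 0.0775). MCM8 did not pass without any 1 of BXPC3 AM-9747 replicates 2, 3 and 4, BXPC3 vehicle replicates 1, 2 and 3, MIAPACA2 AM-9747 replicates 1, 2 and 4, MIAPACA2 vehicle replicates 1, 2 and 3, PSN1 AM-9747 replicates 1, 2 and 3, or PSN1 vehicle replicates 2, 3 and 4 (adjusted p = 0.0501 to 0.113). That call was also lost with no filter on low counts (adjusted p = 0.0674), with the mitochondrial share in the model (adjusted p = 0.197) and without PSN1 vehicle replicates 2 and 3 together (adjusted p = 0.173). SWI5 did not pass without any 1 of BXPC3 AM-9747 replicates 1, 2 and 3, or BXPC3 vehicle replicate 4 (adjusted p = 0.0506 to 0.0618), nor EXO1 without any 1 of PSN1 AM-9747 replicate 1, or PSN1 vehicle replicate 4 (adjusted p = 0.0539 to 0.0570). With spread estimated per line (voom), MCM8 (adjusted p = 0.0742) and RMI2 (adjusted p = 0.0518) did not pass.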

How the results depend on the processing

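Over 1480 pairs of a called member and an alternative, 1252 stayed past the threshold and 228 did not. No call in a line or in the mean response changed sign. The pairs also hold the test of a difference between the lines, which has no sign. In all alternatives run in the line, BXPC3 kept BLM, FANCG, FANCI, FANCL, RAD51D, SLX4, SWI5 and XRCC2, MIAPACA2 kept FANCG, RAD51D and RAD52, and PSN1 kept UBE2T. The joint fit of the 6 groups, which shares 1 spread, gave 3 lower and 13 higher in PSN1, 2 and 1 in MIAPACA2, and 9 and 1 in BXPC3. DESeq2 gave 11 lower in MIAPACA2, and 2 lower and 10 higher in PSN1. Library totals without TMM gave 4 lower and 5 higher in MIAPACA2, and 4 and 14 for the mean response. A mean of at least 5 CPM gave 2 lower in PSN1. The mitochondrial share as covariate gave 16 lower and 5 higher in MIAPACA2 and 0 lower in PSN1. Without PSN1 vehicle replicates 2 and 3, an alternative chosen after seeing the data, 0 members were lower and 3 higher in PSN1. Apart from the scalings, the share of all genes called in each alternative is not given here. A shift in these counts is therefore not a result about the members, and its cause was not tested.

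Leaving out 1 library at a time gave 8 to 19 lower and 2 higher in BXPC3, 2 to 10 lower and 1 to 3 higher in MIAPACA2, 0 to 2 lower and 1 to 10 higher in PSN1, 10 to 14 lower and 4 to 8 higher in the mean response, 8 to 19 members that differed between the lines and 39 to 43 whose vehicle level differed. Replicate numbers share only a number: same-numbered libraries correlated in their deviations at -0.099 to 0.507 in PSN1, -0.255 to 0.224 in MIAPACA2 and -0.033 to 0.447 in BXPC3, and not every library correlated best with its own number. With the replicate block, 2 members were lower and 11 higher in PSN1, 5 and 1 in MIAPACA2, 18 and 2 in BXPC3, and 11 and 8 in the mean response, and 19 differed between the lines. In that fit the MIAPACA2 calls of FAN1, RMI1 and XRCC2 did not pass (adjusted p = 0.0563, 0.0533 and 0.0545). POLN, at 1.01 CPM or less, passed in none of the lines, which does not show that it was unchanged. DESeq2 was not run on the joint comparisons. For the fits with 1 library left out or the replicate block, the share of all genes called is not given here either.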

Other observations

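The genes named here were chosen after their values were seen, and their calls were not followed through the alternative fits. Among the 3 genes listed for the transcription of repair genes, CCNK, the cyclin of CDK12 and CDK13, was higher in BXPC3 (log2 0.73 ± 0.10, adjusted p = 0.000769) and in PSN1 (log2 0.79 ± 0.21, adjusted p = 0.0409) by the edgeR quasi-likelihood test. CCNK had 160, 181, 174 and 158 CPM with AM-9747, against 95.4, 101, 101 and 109 CPM with vehicle in BXPC3. Exons of CCDC85C on the opposite strand cover 59.5% of its exon bases. CDK13 was higher in BXPC3 (log2 0.85 ± 0.13, adjusted p = 0.00105), and CDK12 passed in none of the lines, at log2 -0.34 in BXPC3, -0.61 in MIAPACA2 and 0.19 in PSN1.

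Among the Fanconi partners, ERCC1, which with XPF cuts at crosslinks, was lower in BXPC3 (log2 -0.74 ± 0.17, adjusted p = 0.00858) and MIAPACA2 (log2 -0.70 ± 0.11, adjusted p = 0.00323), and was at log2 -0.59 ± 0.19 (adjusted p = 0.0773) in PSN1. SWSAP1, the partner of ZSWIM7 in the Shu complex, was lower in BXPC3 (log2 -1.40 ± 0.30, adjusted p = 0.00662). ATM, the kinase that signals double-strand breaks, was higher in MIAPACA2 (log2 0.84 ± 0.15, adjusted p = 0.00547), as was the helicase RTEL1 (log2 0.81 ± 0.18, adjusted p = 0.0152). Same-strand exons of RTEL1-TNFRSF6B cover 70.2% of the exon bases of RTEL1, and opposite-strand exons of CD3EAP 28.6% of those of ERCC1. RECQL5, a helicase that limits recombination, was lower in BXPC3 (log2 -0.39 ± 0.13, adjusted p = 0.0494) and PSN1 (log2 -1.15 ± 0.29, adjusted p = 0.0312).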
